A study of Mus musculus with 5 samples.

Results

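The genes described here are the Sox and T-box transcription factor genes of the mouse. They were taken from a table of RNA levels in hair follicle stem cells as the protein-coding genes whose symbol is Sox or Tbx followed by a number, together with Eomes, Tbr1 and T. The rule found 35 of the 55357 genes of the table, 19 Sox and 16 T-box genes. Of these, 11 Sox and 4 T-box genes had enough reads to test. The cells, from back skin of mice at postnatal day 75, were sorted for EpCAM, high α6-integrin and CD34 and against Sca1, with 50000 cells behind each library. Both groups carried Ring1a-/- and Ring1bflox/flox alleles and had 1% RU-486 applied each day for 10 days, starting at day 50, followed by 15 days without it. The 2 Control libraries (replicates 1 and 3) had no Cre, and the 3 PRC1 i2KO libraries (replicates 1, 2 and 3) also carried K15-CrePR1. That transgene is a Cre recombinase under a keratin 15 promoter that RU-486 switches on, so deletion is limited to cells in which the promoter has been active. Since Ring1a is missing from both groups, the comparison is between cells without Ring1a and cells of that kind in which Ring1b was also to be deleted. The labels do not say whether libraries came from separate animals, so the spread that p-values are set against is that of these samples and may be technical.

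SOX proteins bind DNA through an HMG box, which sits in the minor groove and bends the helix, and they usually act beside a partner factor. They are sorted into groups by the sequence of that box, with SoxB to SoxH covering the genes here. T-box proteins share a different DNA-binding domain, named after the Brachyury gene T, and can activate or repress. In the hair follicle, Sox9 is needed to form and keep the stem cells of the bulge, and Tbx1 has been linked to their long-term self-renewal. Most other members direct the formation of nerve, cartilage, vessel, heart, limb or mesoderm cells, and many of them are classical Polycomb targets where they are silent. Ring1 (Ring1a) and Rnf2 (Ring1b) encode the catalytic subunits of PRC1, a Polycomb complex that places ubiquitin on histone H2A.

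Libraries held between 8270419 and 32463173 estimated reads. Gene-level reads do not check the deletion, because reads from the remaining exons are still counted. Values per library are given below in the order Control replicates 1 and 3, then PRC1 i2KO replicates 1, 2 and 3, as CPM, the reads of a gene scaled to library depth. Rnf2 had 67.9 and 57.7 CPM in Control against 48.1, 46.6 and 50.2 CPM in PRC1 i2KO (log2 fold change -0.37, edgeR adjusted p = 0.0363). Its adjusted p was 0.251 without Control replicate 1, and 0.0993 or 0.118 when PRC1 i2KO replicate 1 or 2 was left out. Ring1 overlapped between the groups, at 19.6 to 30.3 CPM. Of 13 bulge marker genes, 12 fell and 1 did not pass, and their summed level was 33843 and 34093 CPM in Control against 7307, 7748 and 11020 CPM in PRC1 i2KO. Cd34, whose product was used to sort the cells, had 1548 and 1697 CPM in Control against 11.0, 12.3 and 37.2 CPM in PRC1 i2KO, so its RNA was low in the cells labelled CD34-positive of that group. The upper follicle (8 of 8), sebaceous (12 of 12), suprabasal (10 of 10) and cycling (12 of 12) markers rose, while of 10 hair germ markers 5 rose, 1 fell and 4 did not pass. The leading genes of these lists were Col17a1, Krt79, Scd1, Sbsn, Mki67 and Cdh3, of which Sbsn was not called without either control or PRC1 i2KO replicate 2. These markers of follicle cell types thus moved with the groups, and their part in the results on the Sox and T-box genes was not tested. In RNA from a pool of cells, a loss of cells of one type and less RNA per cell cannot be told apart.

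One gene dominated each family. On the TPM scale, which corrects for transcript length, Sox9 held 85.8% of the summed level of Sox genes in each Control library, and Tbx1 held 99.1% and 99% of that of T-box genes. In the PRC1 i2KO libraries the share of Sox9 was 59.8%, 59.8% and 67.6%. The summed Sox level itself overlapped between the groups, at 328.8 and 344.8 TPM in Control and 321.7, 338.1 and 384.6 TPM in PRC1 i2KO. The summed T-box level did not overlap, at 479.4 and 582.3 TPM in Control and 98.7, 105.3 and 218.2 TPM in PRC1 i2KO. The summed Sox level was thus similar in size and spread over more genes in PRC1 i2KO, while the T-box level was lower in each of these libraries. With 2 against 3 libraries an exact 2-sided permutation test cannot go below p = 0.2, so these sums were not tested.

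**Figure D1:**
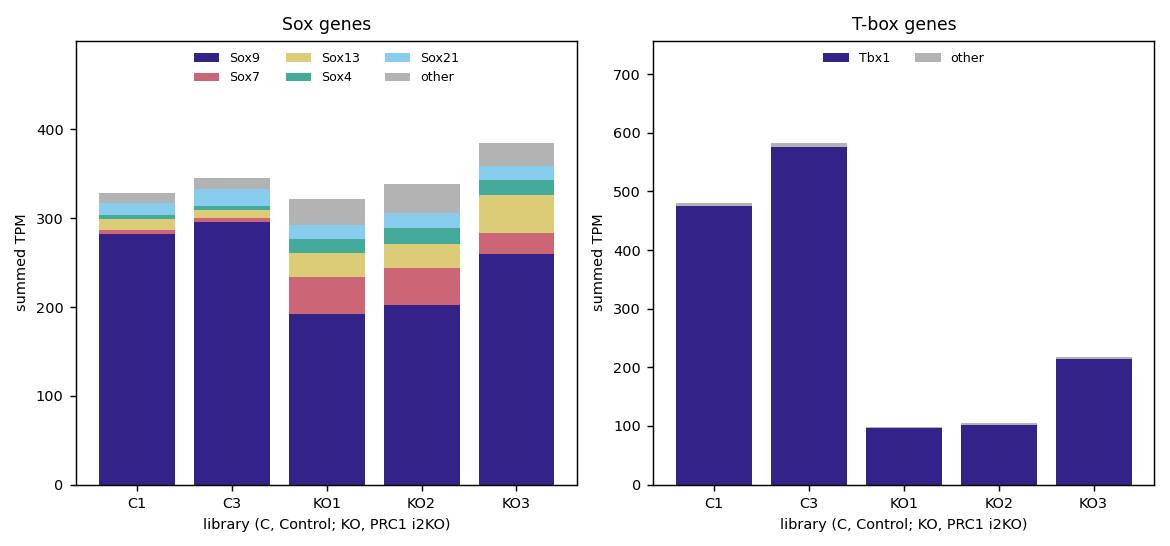
Stacked bars of the summed TPM of Sox genes (left) and T-box genes (right) in each library (C, Control; KO, PRC1 i2KO), split by gene. Sox9 fills 85.8% of the Sox bar in both controls and 59.8% to 67.6% in PRC1 i2KO, and Tbx1 fills nearly all of every T-box bar.

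Of the 15 genes tested, 7 rose (Sox4, Sox5, Sox6, Sox7, Sox10, Sox13 and Tbx21), 1 fell (Tbx1) and 7 did not pass the quasi-likelihood test of edgeR (adjusted p under 0.05). Among all 15665 genes tested, 33.9% were called, 18.8% higher and 15.1% lower. The median log2 fold change was 1.68 over the 15 genes and -0.01 over all genes tested. In 13 of the 15 genes the groups did not overlap, which held for 59.5% of all genes tested. These counts describe the genes that had reads. Sox6, Sox8, Sox10, Sox15 and Tbx21 reached the test through the reads of PRC1 i2KO. The filter thus favoured genes higher in that group, and the direction of these genes is no support for a rise of the families. The median of 1.68 is the value of Sox15, 1 of these genes. Calls of Sox4, Sox7 and Sox13 were made in all 14 alternative fits, including those that left out 1 library. The other 5 were each lost in at least 1 fit with a library left out.

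**Figure D2:**
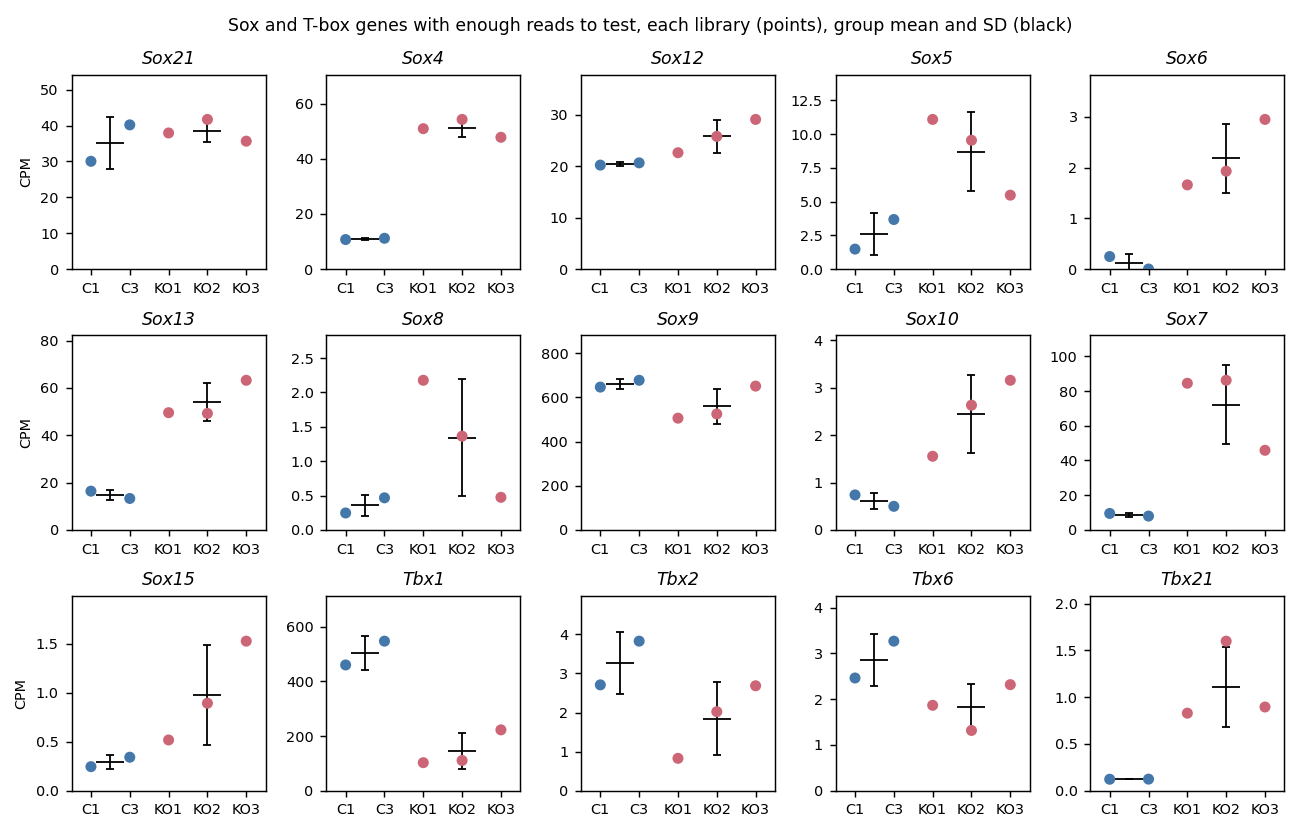
Level in CPM (linear axes from 0) of the 15 tested genes in each library, with Control (C) in blue and PRC1 i2KO (KO) in red. Black lines are group means and bars are the SD (n = 2 and n = 3). Tbx1 is the gene that falls, and Sox4, Sox13 and Sox7 stand clearly above both controls.

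By TPM, Tbx1 (ENSMUSG00000009097) was the most abundant gene of either family in the controls, ranking 236 of 15665 tested genes. In CPM, which is not corrected for length, Sox9 was higher in both controls, at 646.8 and 677.6 CPM. For Tbx1 the controls had 460.4 and 547.5 CPM, and the PRC1 i2KO libraries had 102.8, 110.8 and 222.9 CPM. Every PRC1 i2KO library lay below both controls, and replicate 3 lay above the other two. The fall was 3.46-fold (log2 fold change -1.79, SE 0.39, edgeR adjusted p = 0.0256), and the gene then ranked 907. The call was lost with a single control, without Control replicate 1 (edgeR adjusted p = 0.116) or without Control replicate 3 (0.143), while fits that left out 1 library gave log2 fold changes from -2.24 to -1.59. The summed level of the bulge markers given above had the same order among libraries, with PRC1 i2KO replicate 3 nearest to the controls.

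The bases before the start site are shown for 4 called genes that differ in their content of CG dinucleotides. One form of PRC1 is brought to such CG where they are unmethylated. Sox6, not shown, held fewer than Sox5 at some of its listed starts. The bases shown are RefSeq promoter windows of build GRCm38.p6, a different build from that in the submitters' notes, and are all on the minus strand. Each is written 5′ to 3′ with CG in capitals, and windows were ended where an annotated exon begins. The Sox13 stretch thus ends 165 bases before its listed start, and that of Sox4 ends 14 bases before. Tbx1 is at chr16:18590672-18590921, the farther upstream of its 2 listed starts, Sox4 at chr13:28953714-28953949, Sox13 at chr1:133424378-133424462 and Sox5 at chr6:143947107-143947356.
Tbx1: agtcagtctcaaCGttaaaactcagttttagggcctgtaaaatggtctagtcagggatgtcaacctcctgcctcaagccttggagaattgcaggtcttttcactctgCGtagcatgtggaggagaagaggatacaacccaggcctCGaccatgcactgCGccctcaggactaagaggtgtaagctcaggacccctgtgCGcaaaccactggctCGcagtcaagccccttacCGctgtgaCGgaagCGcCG
Sox4: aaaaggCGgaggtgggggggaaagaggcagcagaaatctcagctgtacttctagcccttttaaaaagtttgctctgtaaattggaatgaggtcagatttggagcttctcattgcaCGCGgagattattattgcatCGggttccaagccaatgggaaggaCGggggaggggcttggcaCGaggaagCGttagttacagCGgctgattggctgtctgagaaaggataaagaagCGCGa
Sox13: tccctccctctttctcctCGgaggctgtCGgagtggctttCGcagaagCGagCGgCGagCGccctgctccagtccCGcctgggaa
Sox5: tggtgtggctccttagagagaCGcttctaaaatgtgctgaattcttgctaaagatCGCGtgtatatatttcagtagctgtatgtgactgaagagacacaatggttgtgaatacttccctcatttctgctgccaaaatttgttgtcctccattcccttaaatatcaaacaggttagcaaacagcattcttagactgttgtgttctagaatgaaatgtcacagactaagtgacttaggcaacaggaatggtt
The 4 windows hold 10 (Tbx1), 10 (Sox4), 8 (Sox13) and 3 (Sox5) CG dinucleotides, or 4.0, 4.24, 9.41 and 1.2 per 100 bases.

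Promoter windows were listed for 25 of the 35 genes. The genes without a window include Sox9 and the called genes Sox7 and Sox10. A window of 250 bases before the start was called CG-rich when over 50% of its bases were G or C and its observed to expected CG ratio was above 0.6. By that rule 14 of the 25 genes (56.0%) had a CG-rich window at 1 or more listed starts, against 64.6% of all tested genes with a window and 33.2% of all genes of the promoter table. Among called genes 4 of 6 were CG-rich (Tbx1, Sox4, Sox13 and Tbx21), among tested genes without a call 3 of 5, and among genes too low to test 7 of 14. Tbx1 counts through its other listed start (ratio 0.603), since the window printed above has a ratio of 0.541. Genes with 0 reads, such as Sox1, Sox2 and Sox11, were thus among those with a CG-rich start. The letters ACAAT, a core that SOX proteins recognise, were found on either strand in 7 of the 25 genes (28.0%), against 30.9% of all genes of the table and 21.0% of tested genes. AGGTGT, a core of the T-box site, was found on either strand in 4 (16%), against 13.6% and 11.8%, and Tbx1 was 1 of the 4.

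Sox9 (ENSMUSG00000000567, group SoxE) was the most abundant Sox gene and did not pass the test. Its levels were 646.8 and 677.6 CPM in Control against 506.1, 525.0 and 651.3 CPM in PRC1 i2KO. In CPM the first 2 PRC1 i2KO libraries lay below both controls, and replicate 3 lay between the controls. In TPM all 3 PRC1 i2KO libraries (192.4, 202.1 and 259.9 TPM) lay below both controls (282.0 and 295.8 TPM). The edgeR log2 fold change was -0.24 (SE 0.13, 95% interval -0.52 to 0.04, edgeR adjusted p = 0.178). On log2(TPM + 1) the change was -0.42 and did not pass (limma adjusted p = 0.0846). Without PRC1 i2KO replicate 3 Sox9 was called in edgeR (-0.36, edgeR adjusted p = 0.00604). The edgeR interval does not reach a fall of the size seen for Tbx1.

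Sox4 (ENSMUSG00000076431), a SoxC gene of embryonic progenitors, rose and was higher in every PRC1 i2KO library. It stood at 10.7 and 11.2 CPM in Control against 51.0, 54.4 and 47.9 CPM in PRC1 i2KO, with libraries of a group close together. The rise was 4.65-fold (log2 fold change 2.22, SE 0.15, edgeR adjusted p = 6.34e-06), and fits without 1 library gave log2 fold changes of 2.17 to 2.27. Its close relative Sox12 was higher in each PRC1 i2KO library but did not pass, at 20.2 and 20.6 CPM in Control against 22.6, 25.8 and 29.1 CPM in PRC1 i2KO (log2 fold change 0.34, 95% interval -0.03 to 0.72, edgeR adjusted p = 0.149). Sox11, the third SoxC gene, had 0 reads in all 5 libraries.

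All 3 SoxD genes rose. SoxD proteins have no activation or repression domain of their own and work through partners, and Sox5 and Sox6 act with Sox9 in cartilage. Sox13 (ENSMUSG00000070643) stood at 16.4 and 13.3 CPM in Control against 49.5, 49.2 and 63.2 CPM in PRC1 i2KO. Its rise was 3.70-fold (log2 fold change 1.89, SE 0.18, edgeR adjusted p = 4.37e-05), with replicate 3 the highest.

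Sox5 (ENSMUSG00000041540) stood at 1.48 and 3.67 CPM in Control against 11.1, 9.54 and 5.48 CPM in PRC1 i2KO. All 3 PRC1 i2KO libraries lay above both controls, and replicate 3, the highest for Sox13, was the lowest for Sox5. Its rise (log2 fold change 1.65, SE 0.45, edgeR adjusted p = 0.0198) was not called without Control replicate 1 (1.23, edgeR adjusted p = 0.087), PRC1 i2KO replicate 1 (0.0674) or PRC1 i2KO replicate 2 (0.0709). Without Control replicate 3 it was larger, at 2.54. Sox6 (ENSMUSG00000051910) had 2 and 0 reads in Control and 16, 41 and 56 reads in PRC1 i2KO. Scaled to depth, the summed reads were 45.6 times as many in PRC1 i2KO, with an exact 95% interval of 12.3 to 381 that covers counting error only (edgeR adjusted p = 0.0132). The call was lost without Control replicate 3 (edgeR adjusted p = 0.067), the library with 0 reads, and on the TPM scale (limma adjusted p = 0.117).

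Sox7 (ENSMUSG00000063060, group SoxF), best known from vessel and blood development, had the largest fold of the 3 genes called in every fit. It stood at 9.48 and 7.96 CPM in Control against 84.5, 86.2 and 45.9 CPM in PRC1 i2KO, 8.41-fold higher (log2 fold change 3.07, SE 0.33, edgeR adjusted p = 0.000781). Its rank by mean TPM went from 10912 to 4263 of 15665 tested genes, which made it second among Sox genes after Sox9. In PRC1 i2KO replicate 3 Sox13 was higher, at 43.5 TPM against 23.3 TPM for Sox7. For Sox7, PRC1 i2KO replicate 3 was again the library nearest to the controls. The other SoxF genes, Sox17 and Sox18, which also act in endothelium, had 2 and 10 reads over all 5 libraries and were not tested.

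Endothelial markers were read beside Sox7. Their summed level was 2.46 and 1.49 CPM in Control against 16.3, 16.9 and 9.84 CPM in PRC1 i2KO. Of the 10 markers 4 were tested, of which 1 rose and 3 did not pass. The gene that rose was Flt1, a VEGF receptor and the leading marker. It had 0 reads in both controls and 13.1, 12.8 and 4.32 CPM in PRC1 i2KO. Flt1 thus reached the test through the reads of PRC1 i2KO, and the filter favoured a rise. Cldn5 and Erg had 0 reads in all libraries. Cdh5, Tie1 and Emcn had reads in PRC1 i2KO replicate 3 alone, at 0.95, 0.63 and 0.32 CPM, which was the PRC1 i2KO library with the lowest Sox7 level. Flt1 made up most of the summed level in PRC1 i2KO replicates 1 and 2, so the sum and Flt1 are not separate observations. Both were lowest in replicate 3 among the PRC1 i2KO libraries, as was Sox7, while Cdh5, Tie1 and Emcn had their reads there. The part of endothelial cells in the reads of Sox7 was not tested.

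Sox10 and Sox8, the SoxE relatives of Sox9, were low and reached the test through the reads of PRC1 i2KO. Sox10 (ENSMUSG00000033006), the regulator of melanocytes and Schwann cells, stood at 0.74 and 0.50 CPM in Control against 1.55, 2.63 and 3.16 CPM in PRC1 i2KO. It rose (log2 fold change 2.05, SE 0.65, edgeR adjusted p = 0.0356), a call that was made in 1 of the 5 fits with a library left out, that without PRC1 i2KO replicate 1. In the others, which left out a control or PRC1 i2KO replicate 2 or 3, its edgeR adjusted p was 0.0703 to 0.185. Sox8 stood at 0.25 and 0.47 CPM in Control against 2.18, 1.36 and 0.47 CPM in PRC1 i2KO, where replicate 3 was at the level of Control replicate 3 (edgeR adjusted p = 0.192).

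Melanocyte markers went both ways: of 11, 7 were tested, 3 rose (Dct, Kit and Pax3), 1 fell (Mitf) and 3 did not pass. Their summed level was 171.5 and 158.1 CPM in Control against 74.9, 78.9 and 74.5 CPM in PRC1 i2KO, most of it from Mitf. Pax3 was not called in 4 of the 5 fits with a library left out, those without either control or PRC1 i2KO replicate 1 or 3 (edgeR adjusted p = 0.0547 to 0.189). Dct, a pigment enzyme, stood at 1.6 and 1.99 CPM in Control against 17.4, 17.0 and 12.9 CPM in PRC1 i2KO. Tyr, the first enzyme of melanin synthesis, had 0 reads in Control and 0.52, 0.28 and 0.32 CPM in PRC1 i2KO, and Oca2 had 0 reads in every library. Of 9 Schwann cell and glial markers 7 were tested, 2 rose (Erbb3 and Ngfr), 1 fell (L1cam) and 4 did not pass, with a summed level of 189.1 and 224.3 CPM in Control against 310.6, 323.7 and 288.3 CPM in PRC1 i2KO. Erbb3 was the most abundant and Cdh19 had 0 reads. Without Control replicate 3, Ngfr (edgeR adjusted p = 0.0663) and L1cam (0.18) were not called, and L1cam was not called without PRC1 i2KO replicates 1 or 2 (0.0647 and 0.0651). Whether cells of these lineages carry the reads of Sox10 was not tested.

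Sox21, a SoxB2 gene known for its role in the hair shaft cuticle, overlapped between the groups, at 30.0 and 40.2 CPM in Control against 37.9, 41.7 and 35.6 CPM in PRC1 i2KO. Its log2 fold change was 0.12 (95% interval -0.24 to 0.47, edgeR adjusted p = 0.609), and its sign turned without Control replicate 1 (-0.06). Its estimated reads were fractional in 4 of 5 libraries, which marks reads that the authors' estimation split between genes. Sox15, the SoxG gene, stood at 0.25 and 0.34 CPM in Control against 0.52, 0.89 and 1.53 CPM in PRC1 i2KO, groups that did not overlap and did not pass the test (log2 fold change 1.68, 95% interval -0.43 to 3.8, edgeR adjusted p = 0.206).

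Of the T-box genes other than Tbx1, 3 were tested. Tbx21 (ENSMUSG00000001444), the T-bet regulator of T and NK cells, had 1 and 4 reads in Control and 8, 34 and 17 reads in PRC1 i2KO. It rose from 0.12 CPM in both controls to 0.83, 1.6 and 0.89 CPM (log2 fold change 3.10, SE 1.03, edgeR adjusted p = 0.0416). The call was lost without Control replicate 1 (0.135), Control replicate 3 (0.198) or PRC1 i2KO replicate 2 (0.098), and on the TPM scale (limma adjusted p = 0.0738).

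Tbx2 and Tbx6 pointed the other way and did not pass. Tbx2, which acts in organ patterning, stood at 2.71 and 3.83 CPM in Control against 0.83, 2.02 and 2.68 CPM in PRC1 i2KO (log2 fold change -0.81, 95% interval -2.02 to 0.41). Tbx6, a gene of the early mesoderm, stood at 2.46 and 3.27 CPM in Control against 1.87, 1.32 and 2.32 CPM in PRC1 i2KO (log2 fold change -0.66, 95% interval -1.77 to 0.45).

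T and NK cell markers were read beside Tbx21. Of 11, 2 were tested, 1 rose (Thy1, at 6.03 and 4.51 CPM in Control against 12.5, 9.69 and 14.1 CPM in PRC1 i2KO) and 1 did not pass. Thy1 was not called without Control replicate 3 (edgeR adjusted p = 0.0899). Cd3d, Nkg7, Gzmb and Klrb1c had 0 reads in all libraries, and Cd3e stood at no more than 0.31 CPM. The summed level of the list was 6.65 and 5.41 CPM in Control against 13.5, 11.6 and 15.8 CPM in PRC1 i2KO, most of it from Thy1. The share of the Tbx21 reads that such cells carry was not tested.

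The other 20 genes were too low to test, and most of them had no read at all. In 11 (Sox1, Sox2, Sox11, Sox14, T, Tbx3, Tbx5, Tbx10, Tbx18, Tbx20 and Tbx22) there were 0 reads in all 5 libraries. That allows a level of up to 0.0745 CPM in Control against 0.0601 CPM in PRC1 i2KO, counting 3 reads over each group, for counting error only. They include Sox1 and Sox2 of neural progenitors, Tbx5 of heart and forelimb and Tbx20 of heart. The remaining 9 had between 2 and 25 reads in all. Tbx15, a gene of dermal patterning, had 0 and 11 reads in Control and 2, 8 and 4 in PRC1 i2KO, and Sox30, a gene of the testis, had 6 and 0 in Control and 5, 10 and 0 in PRC1 i2KO. Sox3, Sox17, Tbx4, Tbx19, Eomes and Tbr1 had 0 reads in Control and no more than 4 in PRC1 i2KO, and Sox18 had 1 and 9. Summed over the 20 genes, the level was 0.86 and 0.34 CPM in Control against 0.73, 1.74 and 0.47 CPM in PRC1 i2KO, groups that overlapped.

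Markers of other skin cell types were read beside these genes. Of 12 dermal markers 6 were tested, 1 rose (Dcn), 3 fell (Col1a1, Col1a2 and Pdgfra) and 2 did not pass, at a summed level of 74.8 and 73.6 CPM in Control against 37.8, 40.3 and 33.7 CPM in PRC1 i2KO, with Col1a2 the leading gene. Dcn was not called without Control replicate 3 (edgeR adjusted p = 0.191) or PRC1 i2KO replicate 1 (0.1), and Col1a1 was called only without PRC1 i2KO replicate 3 among fits with 1 library left out. Of 9 Merkel cell markers 4 were tested, 1 rose (Krt18) and 3 did not pass. Krt18 had 0 reads in Control and reached the test through the reads of PRC1 i2KO. The summed level of the list was 5.54 and 4.35 CPM in Control against 6.94, 5.08 and 7.95 CPM in PRC1 i2KO. Piezo2 led that list, and Krt20, Isl1 and Sst had 0 reads. Of 5 smooth muscle markers 3 were tested, 1 rose (Tagln, the leading gene, not called without either control or PRC1 i2KO replicate 2) and 2 did not pass, at no more than 4.97 CPM summed in any library.

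**Figure D3:**
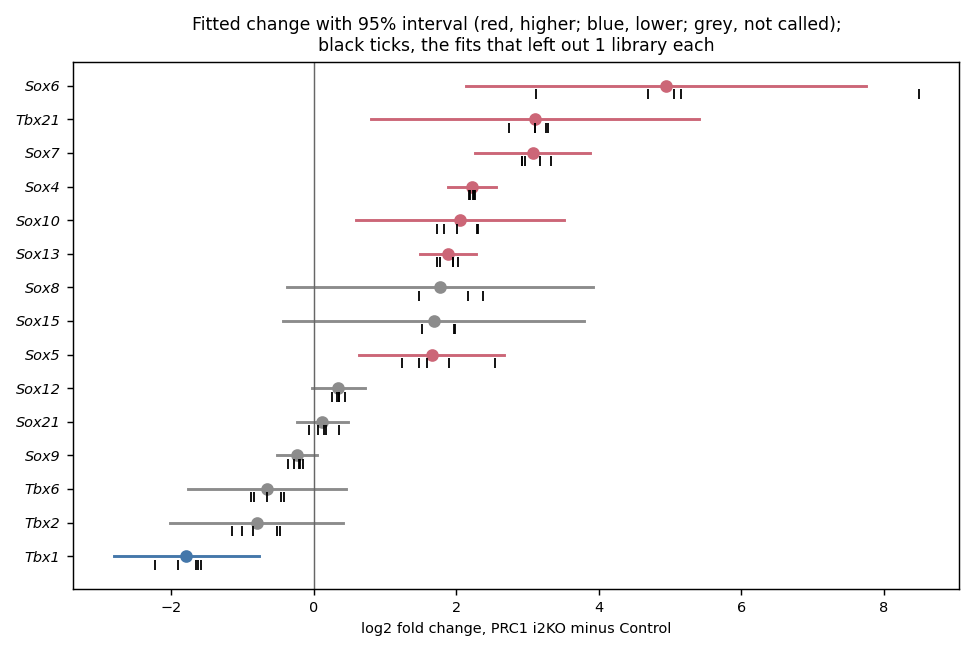
Log2 fold change of the 15 tested genes (PRC1 i2KO minus Control) with its 95% interval, coloured red for higher, blue for lower and grey for not called. Black ticks are the fits that left out 1 library each. The ticks of Sox4, Sox13 and Sox7 stay close to their points, and those of Sox6 run from 3.11 to 8.49.

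The 3 PRC1 i2KO libraries were not alike for these genes. In 9 of the 15 tested genes (Sox4, Sox5, Sox7, Sox8, Sox9, Sox21, Tbx1, Tbx2 and Tbx6) replicate 3 was the PRC1 i2KO library closest to the Control mean. In 5 (Sox6, Sox10, Sox12, Sox15 and Tbx21) it was replicate 1, and in 1 (Sox13) it was replicate 2. Thus replicate 3 lay nearer to the controls for Tbx1, Sox9 and Sox7, and farthest from them for Sox6, Sox10, Sox12, Sox13 and Sox15.

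The deposited table also carries a length for each gene, since the ratio of estimated reads to TPM is proportional to the transcript length that the reads were divided by. This ratio was scaled to the median gene in each library and to the Control mean. For 9 of the 14 genes with a value (Sox4, Sox7, Sox9, Sox12, Sox15, Sox21, Tbx1, Tbx2 and Tbx21) it lay between 0.957 and 1.01 in every library, and for Sox13 and Tbx6 between 0.882 and 1.15. For Sox5 it was 1.11 and 0.90 in Control and 0.38, 0.50 and 0.78 in PRC1 i2KO, so that its reads were assigned to shorter transcripts in every PRC1 i2KO library. The mean log2 difference was -0.92. For scale, 1.53% of 11362 genes with at least 20 reads and 0.5 TPM in every library differed by over 1.5-fold between group means, and Sox5 itself missed that minimum with 12 reads in Control replicate 1. The ratio was also low for Sox10 in PRC1 i2KO replicates 1 and 3 (0.49 and 0.57) and for Sox8 in replicates 1 and 2 (0.61 and 0.17), where it rests on 2 to 60 reads a library. The groups overlapped for Sox10, and for Sox8 replicate 3 lay just below the lower control (0.987 against 0.991). Sox5 was singled out after its values were seen, and isoforms were not analysed here.

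**Figure D4:**
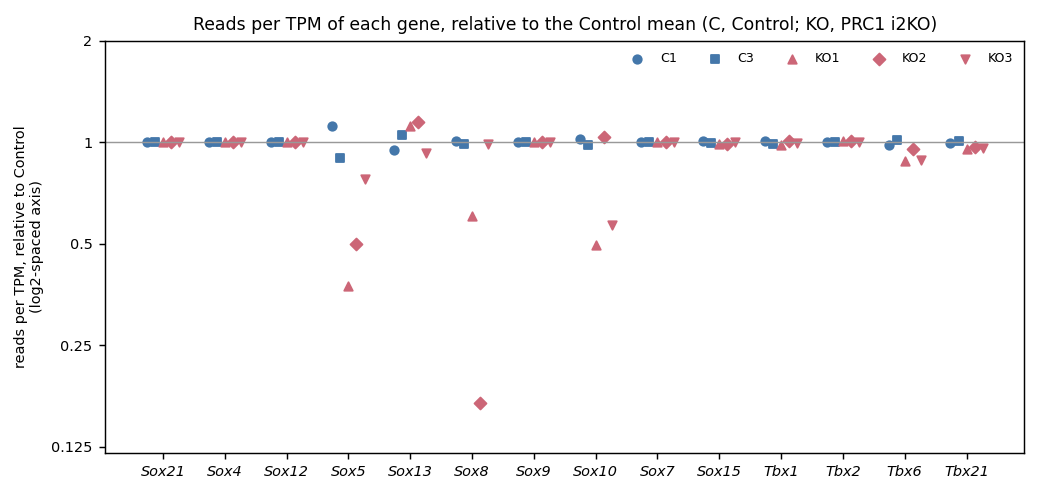
Reads per TPM of 14 genes in each library, relative to the Control mean, on a log2-spaced axis (C, Control, blue; KO, PRC1 i2KO, red). The points of Sox5 fall to 0.38, 0.50 and 0.78 in PRC1 i2KO, while those of Sox9, Sox7, Sox4 and Tbx1 lie close to 1.

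A further 7 gene lists around these factors were read in the same fit. Their counts stand beside 18.8% of all tested genes called higher and 15.1% called lower, and no list was tested as a set. Among 14 other transcription factors of follicle stem cells, 7 fell, 2 rose and 5 did not pass (median log2 fold change -0.51, against -0.01 over all genes). Nfib, which links follicle stem cells to the behaviour of melanocyte stem cells, fell from 1806 to 901 CPM (log2 fold change -1.0, SE 0.11, edgeR adjusted p = 0.000117). Trp63, the master regulator of stratified epithelium, and Tcf7l2, a WNT effector, fell by 0.62 and 0.65 on the log2 scale. Klf5 rose by 2.11 on that scale, from 57.8 to 247.4 CPM. With either control left out, 4 of these factors fell in place of 7, and 1 rose. The second gene to rise was also lost without PRC1 i2KO replicates 1 or 2.

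The BMP list was read because Tbx1 has been linked to the damping of BMP signals in follicle stem cells. Of 18 genes tested out of 19, 8 fell, 1 rose and 9 did not pass (median log2 fold change -0.52), and 5 fell and 2 rose without Control replicate 1. The targets and transducers that fell included Id2 (log2 fold change -2.23) and Smad9 (-2.67), the antagonist gene Grem1 fell by 3.23, and the ligand gene Bmp7 rose by 2.74. The activin list was read because this pathway has been placed downstream of Sox9 in these cells. Of 10 activin genes 1 fell (Fstl3, an activin-binding inhibitor, log2 fold change -0.91, edgeR adjusted p = 0.000993) and 9 did not pass (median -0.15).

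Cartilage targets of Sox9, Sox5 and Sox6 were nearly silent. Of 13, 6 had 0 reads in all libraries (Acan, Col9a1, Matn1, Matn3, Hapln1 and Cnmd), 5 were tested, 1 rose and 4 did not pass (median log2 fold change 1.11). The gene that rose was Col2a1, cartilage collagen, with 0 reads in Control and 33 in PRC1 i2KO. It was at least 8.88-fold higher, counting 3 reads over the Control group. Col2a1 thus reached the test through the reads of PRC1 i2KO, and the filter favoured a rise. The count and the median are therefore no support for a rise of the list. The call of Col2a1 (edgeR adjusted p = 0.0309) did not hold when either control was left out. Without PRC1 i2KO replicate 2 or 3 the gene had too few reads to test. On log2(TPM + 1) it was not called (limma adjusted p = 0.128), and its mean in PRC1 i2KO was 0.60 CPM.

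Groucho and other corepressors went both ways, with 4 of 11 higher, 2 lower and 5 that did not pass (median log2 fold change -0.01). Tle1 rose from 42.0 to 120.3 CPM and Tle3 from 92.1 to 204.0 CPM, while Tle2 fell from 111.3 to 46.5 CPM and Tle4 from 75.6 to 43.1 CPM. The Groucho genes thus split 2 and 2, with Tle5 at a log2 fold change of -0.14 (edgeR adjusted p = 0.4).

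Of 9 POU factor genes, which encode partners of SOX proteins, 4 were tested, 3 fell and 1 did not pass (median log2 fold change -0.65). Pou2f1 fell by 0.58, Pou3f1 by 0.96 and Pou6f1 by 0.73 on the log2 scale. On log2(TPM + 1), Pou2f1 (log2 fold change -0.19, limma adjusted p = 0.519) and Pou3f1 (limma adjusted p = 0.0633) were not called, while Pou6f1 was. Pou3f1 was not called without Control replicate 3 (log2 fold change -0.36, edgeR adjusted p = 0.343), PRC1 i2KO replicate 1 (0.0901) or PRC1 i2KO replicate 2 (0.0927). Pou6f1 was called in 1 of the 5 fits that left out a library, that without PRC1 i2KO replicate 3, and its edgeR adjusted p was 0.0625 to 0.137 in the others.

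Among 18 further genes with an HMG box or a T-box, 7 rose, 4 fell and 7 did not pass (median log2 fold change 0.01), and 2 fell with either control left out. Lef1 and Tcf7, the HMG-box factors that respond to WNT, rose by 2.79 and 1.14 on the log2 scale, whereas Tcf7l2 of the same family fell by 0.65. Hmgb2, a chromatin protein of cycling cells, rose by 1.29, and Tox2 rose by 3.26 to 6.94 CPM. Mga, which carries a T-box and is also a subunit of a PRC1 variant, had a log2 fold change of -0.33 (edgeR adjusted p = 0.0263). Its adjusted p was 0.108 to 0.119 when either control or PRC1 i2KO replicate 1 was left out, and Mga was named after its values were seen.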

How the data were processed

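The submitters' processing notes list RSEM 1.3.3, STAR 2.7.9a, the build mm39 and DESeq2 1.38.2, with no step given. The authors deposited expected counts (9.06% of genes have a fractional value) and TPM for each of 5 libraries, per the file headers. Strand and annotation: not given in the sources used here. After rounding, counts went into edgeR 4.0.16, run in R 4.3.3 (filterByExpr, TMM, robust quasi-likelihood F test, genotype as the only term), with Benjamini-Hochberg adjustment over 15665 genes. CPM uses the same scaling, and the 95% intervals of log2 fold changes come from that test. Alternatives used DESeq2 1.42.0, other scalings and filters, limma 3.58.1 on log2(TPM + 1) or log2(TPM + 0.1), and fits without each library. Floors count 3 reads.

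Tested on simulated counts, the p-values of genes with no change were calibrated, but where genes differed in dispersion as they do here, false calls exceeded the nominal share, so adjusted p-values near 0.05 are optimistic. Libraries of a group differed by more than sampling noise (their chi-square was at least 9.80 per degree of freedom), and none were merged. The number of Control replicate 3 is that of its title, and its description gives a different one. The genes, the 13 marker and 7 pathway lists and the tests were chosen with earlier results of these data known. The rule named every member, and up to 4 called genes of each pathway list by adjusted p (or the 2 most abundant). It also named the most abundant marker of each list. Others from the lists were added after their values were seen. These are Flt1, Dct, Kit, Pax3, Ngfr, L1cam, Dcn, Col1a1, Pdgfra, Krt18, Cd34, Tle5, Mga and the markers near 0. Promoter windows are RefSeq sequences and were matched by symbol.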

Additional observations from a re-analysis of the deposited data

How the results depend on the processing

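Among the 15 tested genes, 7 rose and 1 fell. Between 4 and 6 rose and between 0 and 2 fell with 1 library left out, the second gene to fall being Sox9 without PRC1 i2KO replicate 3. The count was 4 without Control replicate 1, Control replicate 3 or PRC1 i2KO replicate 2, and the fall of Tbx1 was not called with either control left out. With no filter on low counts Tbx1 was not called (edgeR adjusted p = 0.111), and on unfiltered TPM 3 rose. DESeq2, RLE size factors and library totals gave the same 8 calls. Over all genes, 2939 rose and 2371 fell, 18.8% and 15.1% of those tested, the shares beside which the pathway counts below stand. On TPM the number that rose was 1866 (pseudocount 1), 1881 (0.1) and 1410 (no filter), and the median gene moved by -0.13, -0.15 and -0.05 on the log2 scale. Leaving out 1 library gave 1963 to 3099 genes higher and 1359 to 2757 lower, the fewest without Control replicate 3. Of 78 tested pathway genes, 15 rose and 23 fell, and 10 to 14 rose and 15 to 31 fell with 1 library left out, the fewest falls without Control replicate 1. Sox21, which was called in no fit, had log2 fold changes of -0.026, -0.027 and -0.026 on TPM, and of -0.065 (without Control replicate 1) to 0.355 (without Control replicate 3) with 1 library left out. The causes were not tested. Title numbers 1 and 3 are shared between groups, with correlations of deviations of 0.12 and 0.20 in these 2 pairs, too few to show that numbers pair the samples. A pair of unlike numbers, Control replicate 1 with PRC1 i2KO replicate 2, had 0.11. With 2 controls, the deviations of one mirror those of the other. With the replicate number as a block, over the 4 libraries numbered 1 and 3, 4 of the genes rose and 1 fell. Over all genes 2388 rose and 1853 fell. The same libraries without the block gave 4, 1, 2179 and 1599. Depth limits the genes below 1 CPM, since 1 read is 0.123 CPM in Control replicate 1.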
